A study of Mus musculus with 6 samples.

Results

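Expression was followed for 9 transcription factor genes of the myeloid lineage, chosen by name: Spi1, Cebpa, Cebpb, Cebpd, Klf4, Klf2, Maf, Runx1 and Id2. All 9 were found among the 27634 genes of the deposited expression table, 8 under these symbols and Spi1 under its older symbol Sfpi1. The libraries came from cells labelled as cancer-associated dendritic cells, from C57BL/6 mice in which ID8-Defb29/Vegf-a, an ovarian tumour line of the mouse, had grown for 32 to 38 days. All mice received polyethylenimine nanocomplexes with 100 µg of siRNA. In the experiment where Satb1 was strongly downregulated (the high experiment), 2 libraries came from mice given Satb1 siRNA and 2 from mice given non-targeting (NT) siRNA. In the other experiment, titled as one with low downregulation of Satb1 (the low experiment), there was 1 library of each kind. Satb1 encodes a chromatin organiser, and no group carried a genetic deletion. Whether libraries came from pooled animals, and how the cells were isolated, is not stated in the labels used here.

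These factors act together to set the fate of myeloid cells. PU.1, the product of Spi1, is needed for macrophages, granulocytes and dendritic cells, and it works with C/EBP proteins and Runx1 on the genes of the growth factor receptors. C/EBP alpha acts early in granulocyte and monocyte formation, while C/EBP beta and C/EBP delta are induced in inflammation and emergency myelopoiesis. Klf4 drives monocyte differentiation, Klf2 restrains inflammatory activation of myeloid cells, and c-Maf is a factor of tissue and tumour macrophages that drives Il10. Id2 binds E proteins and blocks their access to DNA, and it is needed for several dendritic cell subsets.

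Satb1, which checks the labels, had 184 and 200 counts in the high Satb1 siRNA libraries, against 1233 and 1193 in the high NT libraries. It had 165 counts in the low Satb1 siRNA library and 170 in the low NT library. Library totals ran from 24553454 to 71272720 counts. The repeats within each high group were nearly identical. Their mean chi-square per gene was 1.37 for Satb1 siRNA and 1.202 for NT, where counting noise alone gives about 1, and for the 9 factors it was at most 4.12. Each group was therefore counted as 1 sample, and the standard errors and p-values of the high experiment compare the sequenced libraries only. Levels are given as CPM (counts relative to the library total) after TMM scaling over all 6 libraries, which corrects for the makeup of each library, unless another scale is named. In these bulk libraries, fewer cells of a type and less RNA per cell cannot be told apart.

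The promoter stretches of the C/EBP pair Cebpa and Cebpb and of the Krüppel-like pair Klf4 and Klf2 are shown because the members of each pair did not change alike. RefSeq's table (build GRCm38.p6) held windows for 6 of the 9 genes. Each stretch is the 250 bases before the annotated start, written 5′ to 3′ on the gene's strand, for Cebpa at chr7:35119043-35119292 (plus strand), Cebpb at chr2:167688665-167688914 (plus), Klf4 at chr4:55532476-55532725 (minus) and Klf2 at chr8:72318812-72319061 (plus). Capitals mark matches on either strand to 10 searched motifs, which are listed after the sequences.
Cebpa: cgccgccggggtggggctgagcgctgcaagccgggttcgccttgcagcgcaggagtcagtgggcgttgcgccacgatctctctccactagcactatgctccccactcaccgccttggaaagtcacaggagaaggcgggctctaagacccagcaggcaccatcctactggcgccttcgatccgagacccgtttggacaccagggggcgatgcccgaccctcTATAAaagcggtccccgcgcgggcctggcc
Cebpb: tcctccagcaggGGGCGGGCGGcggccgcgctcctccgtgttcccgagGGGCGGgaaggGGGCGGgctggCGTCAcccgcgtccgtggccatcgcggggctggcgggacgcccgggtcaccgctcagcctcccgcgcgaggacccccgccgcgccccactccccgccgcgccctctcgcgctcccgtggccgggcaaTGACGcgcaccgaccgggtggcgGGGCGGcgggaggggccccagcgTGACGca
Klf4: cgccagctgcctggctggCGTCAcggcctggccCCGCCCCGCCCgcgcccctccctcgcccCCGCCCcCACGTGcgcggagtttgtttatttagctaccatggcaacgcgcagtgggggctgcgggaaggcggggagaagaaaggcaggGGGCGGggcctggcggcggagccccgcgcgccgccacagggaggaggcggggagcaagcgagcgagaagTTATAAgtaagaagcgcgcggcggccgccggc
Klf2: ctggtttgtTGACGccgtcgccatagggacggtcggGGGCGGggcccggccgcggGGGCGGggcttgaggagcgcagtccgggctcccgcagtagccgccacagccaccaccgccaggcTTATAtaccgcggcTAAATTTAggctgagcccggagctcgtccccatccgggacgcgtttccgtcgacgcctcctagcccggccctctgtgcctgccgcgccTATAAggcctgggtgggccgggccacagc

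The motifs were the TATA box TATAA, the CCAAT box CCAAT, the GC box GGGCGG, the cyclic AMP response core TGACG, the E-box CACGTG, the C/EBP core TTGCNNAA, the PU.1 core GAGGAA, the RUNX core TGTGGT, the MEF2 core TAAATTTA and the AP-1 motif TGANTCA. Matches may overlap, as the GC boxes of Cebpb do. The stretches differed in what they held. Cebpa held only a TATA box, which lay 30 to 26 bases before the start. Cebpb held 5 GC boxes and 3 TGACG cores and no TATA box. Klf4 and Klf2 both held a TATA box near the start, GC boxes and 1 TGACG core. Klf4 also held an E-box, and Klf2 a MEF2 core 117 to 110 bases before its start. MEF2 proteins are known activators of Klf2. Of all 32851 windows of this length, 22.8% held the TATA box, 33.8% the CCAAT box, 32.7% the GC box, 17.8% the TGACG core, 6.02% the E-box, 9.56% the C/EBP core, 23.3% the PU.1 core, 14% the RUNX core, 6.75% the AP-1 motif and 0.502% the MEF2 core.

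Compared per transcript length, by the authors' deposited FPKM, the most abundant factor differed between the experiments. In the high experiment Maf stood first, with 102 and 103 FPKM in the Satb1 siRNA libraries and 95.5 and 97.2 FPKM in the NT libraries. Cebpb came second, with 80.4 and 80.1 FPKM in the Satb1 siRNA libraries and 88.9 and 91.2 FPKM in the NT libraries, and Id2 followed. In the low experiment Id2 stood first, with 198 FPKM in the Satb1 siRNA library and 205 FPKM in the NT library. Spi1 came next, with 167 FPKM in the low Satb1 siRNA library and 203 FPKM in the low NT library, ahead of Maf with 67.6 FPKM in the Satb1 siRNA and 65.1 FPKM in the NT library. Klf2 was the least abundant factor of the high experiment (9.02 and 9.23 FPKM with Satb1 siRNA, 10.2 and 10.4 FPKM with NT). Cebpd was the least abundant of the low experiment (2.97 FPKM with Satb1 siRNA, 2.08 FPKM with NT). In the high NT group the FPKM of Cebpa (16.3 and 16.6) and of Cebpd (15.1 and 14.9) were neighbours in the order. In the high Satb1 siRNA group these neighbours overlapped, with 13.8 and 13.7 FPKM for Cebpa and 14.02 and 13.6 FPKM for Cebpd.

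**Figure D1:**
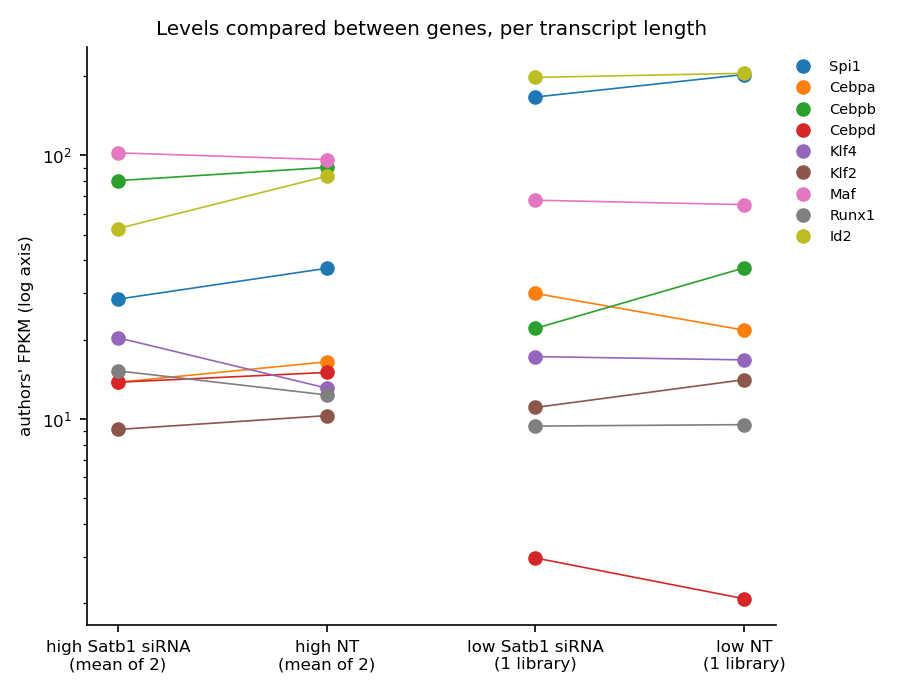
Authors' FPKM of the 9 genes (log axis) in each group, as the mean of 2 libraries in the high experiment and as 1 library in the low experiment; lines join the groups of an experiment. Id2 and Spi1 lead in the low experiment, at 198 and 167 FPKM with Satb1 siRNA, and Maf and Cebpb lead in the high experiment.

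In the high experiment, which asks what differs when Satb1 is strongly reduced, 6 of the 9 factors were lower in the Satb1 siRNA libraries and 3 were higher. Id2 had the largest fall and Klf4 the largest rise, and no other factor reached 0.5 on the log2 scale. Of all 20242 genes tested with edgeR, 33.2% were called lower and 32.8% higher at an adjusted p under 0.05, since the repeats are so alike. The sizes of the changes are therefore the main description. At 1.5-fold or more, 1 of the 9 factors was lower and 0 were higher, against 9.8% lower and 14.8% higher among all genes tested. The median log2 fold change of the factors was -0.22, against 0.011 for all genes.

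Among the master regulators, Spi1 had 34.4 and 32.2 CPM in the Satb1 siRNA libraries, against 45.9 and 45.6 CPM in the NT libraries. Both Satb1 siRNA libraries lay below both NT libraries, and the libraries of the groups did not overlap for 82.2% of all genes tested. This gave a log2 fold change of -0.45 (SE 0.031 between repeats; edgeR adjusted p = 1.02e-21). Runx1, which partners the core binding factor Cbfb, had 69.9 and 71.1 CPM in the Satb1 siRNA libraries, against 59.2 and 59.4 CPM in the NT libraries. It was higher in both Satb1 siRNA libraries, by 0.25 on the log2 scale (SE 0.025; edgeR adjusted p = 9.44e-15).

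The 3 C/EBP genes were lower together, by small amounts. Cebpa had 30.5 and 30.2 CPM in the Satb1 siRNA libraries, against 38.0 and 38.8 CPM in the NT libraries, a log2 fold change of -0.33 (SE 0.032). Cebpb had 89.5 and 88.4 CPM in the Satb1 siRNA libraries, against 102.5 and 104.8 CPM in the NT libraries, a log2 fold change of -0.22 (SE 0.022). Cebpd had 28.1 and 27.2 CPM in the Satb1 siRNA libraries, against 31.5 and 31.3 CPM in the NT libraries, a log2 fold change of -0.18 (SE 0.034). The groups did not overlap for any of these genes, as was so for 82.2% of all genes tested. The adjusted p in edgeR was 3.91e-15 for Cebpa, 9.37e-14 for Cebpb and 4.08e-06 for Cebpd.

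The Krüppel-like genes went opposite ways. Klf4 had 55.1 and 53.7 CPM in the Satb1 siRNA libraries, against 37.1 and 36.1 CPM in the NT libraries. This was a log2 fold change of 0.57 (SE 0.028; edgeR adjusted p = 1.62e-29), larger than in 84.9% of all genes tested. Klf2 had 14.5 and 14.8 CPM in the Satb1 siRNA libraries, against 17.1 and 17.4 CPM in the NT libraries. Its log2 fold change was -0.23 (SE 0.046; edgeR adjusted p = 1.44e-05). Neither gene's groups overlapped, as was so for 82.2% of all genes tested.

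Maf was nearly level and Id2 was lower. Maf, the most abundant factor of this experiment, had 318.1 and 320.6 CPM in the Satb1 siRNA libraries, against 309.5 and 315.2 CPM in the NT libraries, with a narrow gap between the groups. The log2 fold change of 0.037 (SE 0.011) was called in edgeR (adjusted p = 2.53e-03), but not in DESeq2 (adjusted p = 0.160). The Maf call also ended in edgeR without Satb1 siRNA replicate 2 (adjusted p = 0.0751, log2 fold change 0.031) or without NT replicate 1 (adjusted p = 0.154, log2 fold change 0.017). By library size alone the change was 0.091 (edgeR adjusted p = 2.69e-12), where the median of all genes was 0.065. Id2 had 47.8 and 48.2 CPM in the Satb1 siRNA libraries, against 79.1 and 79.1 CPM in the NT libraries. The log2 fold change was -0.72 (SE 0.025; edgeR adjusted p = 3.06e-38), and 7.09% of all genes tested had a lower value.

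**Figure D2:**
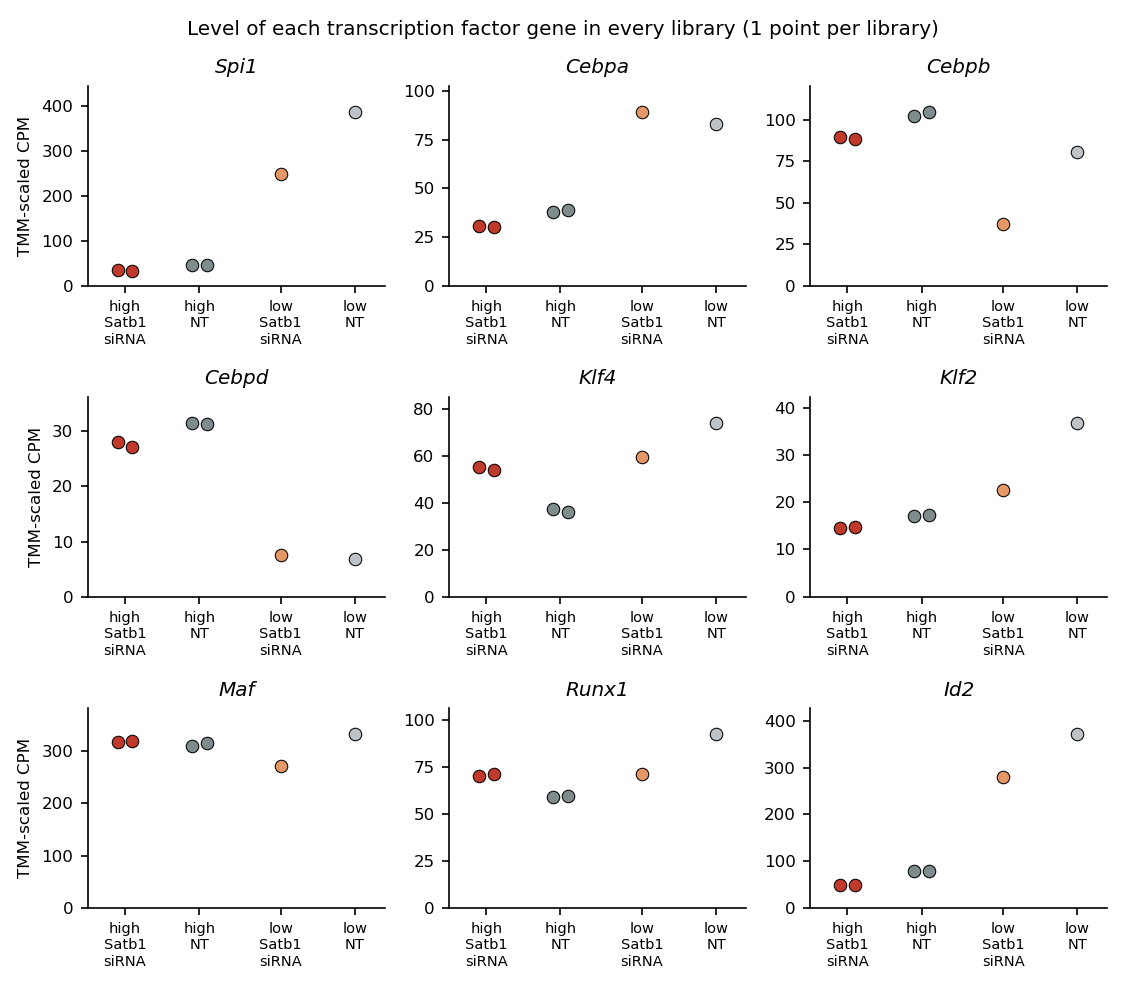
TMM-scaled CPM of each gene, 1 point per library, in 9 panels with axes from 0; the groups are high Satb1 siRNA, high NT, low Satb1 siRNA and low NT. Repeats of the high experiment lie almost on each other, and Spi1 and Id2 are far higher in both low libraries than in the 4 high libraries.

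In the low experiment, where Satb1 itself was not detectably lower (log2 ratio -0.26, 95% counting interval -0.58 to 0.058), Cebpb had the lowest ratio of the 9 factors. Even the sign of the Satb1 ratio rests on the TMM scaling. Satb1 had 165 of 24553454 counts with Satb1 siRNA, a slightly larger share than the 170 of 27029554 counts with NT. With 1 library per siRNA there is no test, and the intervals given here are exact binomial ones that cover counting error only. At 1.5-fold or more, 3 of the 9 factors were lower and 0 were higher, against 12.2% lower and 15.6% higher among 13700 genes whose average log2 CPM was at least 0. The median log2 ratio of all genes was -0.059 with TMM scaling and 0.29 with scaling by library size alone, and the ratios of the factors moved with it.

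Cebpb had 37.1 CPM in the low Satb1 siRNA library, against 80.7 CPM in the low NT library. Its log2 ratio was -1.12 (interval -1.24 to -0.997), and -0.76 with scaling by library size alone. Only 3.02% of all genes had a lower ratio. Klf2 had 22.5 CPM with Satb1 siRNA, against 36.8 CPM with NT, a log2 ratio of -0.71 (interval -0.88 to -0.54) that was -0.35 by library size alone. Spi1 had 247.8 CPM with Satb1 siRNA, against 386.2 CPM with NT, a log2 ratio of -0.64 (interval -0.69 to -0.59) that was -0.28 by library size alone. These 3 genes were lower than the median of all genes. The scaling shifts all genes alike, so it cannot change that place.

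The other factors moved less, and the sign of some rests on the scaling. Id2 had a log2 ratio of -0.41 (280.2 CPM with Satb1 siRNA and 372.1 CPM with NT), or -0.054 by library size alone. Runx1 had -0.38 (71.0 CPM with Satb1 siRNA and 92.6 CPM with NT), or -0.027 by library size alone. Klf4 had -0.31 (59.4 CPM with Satb1 siRNA and 73.8 CPM with NT) and Maf -0.30 (271.3 CPM with Satb1 siRNA and 333.2 CPM with NT), but by library size alone these were 0.040 and 0.059. All 4 were below the median of all genes, a place that the scaling cannot change. Cebpa was above that median, at 89.2 CPM with Satb1 siRNA and 82.9 CPM with NT, with a log2 ratio of 0.11 (interval 0.011 to 0.20) that was 0.46 by library size alone. Cebpd rested on 168 counts with Satb1 siRNA and 130 counts with NT, and its ratio of 0.15 had an interval of -0.19 to 0.49. By library size alone its ratio was 0.50 with an interval of 0.17 to 0.85, so whether the interval holds 0 depends on the scaling.

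Markers of other cells also differed between the low libraries, and their part in these ratios was not tested. The summed level of 9 neutrophil markers was 296.2 CPM with Satb1 siRNA and 700.8 CPM with NT, and that of 8 tumour, epithelial and mesothelial markers was 607.2 CPM with Satb1 siRNA and 168.3 CPM with NT. In the high experiment the same sums were 106.2 to 106.5 CPM with Satb1 siRNA and 96.5 to 96.8 CPM with NT for neutrophils, and 697.4 to 703.1 CPM with Satb1 siRNA and 644.3 to 646.1 CPM with NT for tumour, epithelial and mesothelial markers. The neutrophil marker Camp was at 0 in at least 1 library. Macrophage markers (9 genes) summed to 4440 CPM with Satb1 siRNA and 6590 CPM with NT in the low experiment, and to 2302 to 2311 CPM with Satb1 siRNA and 1966 CPM in both NT libraries in the high experiment. There edgeR called 6 of these 9 higher and 2 lower, and 3 of 8 neutrophil markers higher and 2 lower. The shares of all genes tested were 32.8% higher and 33.2% lower. Cd163 had 621.3 and 625.2 CPM with Satb1 siRNA there, against 317.9 and 316.8 CPM with NT. The macrophage markers Cd68 (-0.46) and Fcgr1 (-0.38) and the neutrophil markers Mmp8 (-0.55) and Ltf (-0.66) were the lower ones. The B cell sum (8 markers) was 53.9 to 55.5 CPM with Satb1 siRNA and 38.5 to 39.9 CPM with NT in the high experiment, and 64.9 CPM with Satb1 siRNA and 62.7 CPM with NT in the low one.

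**Figure D3:**
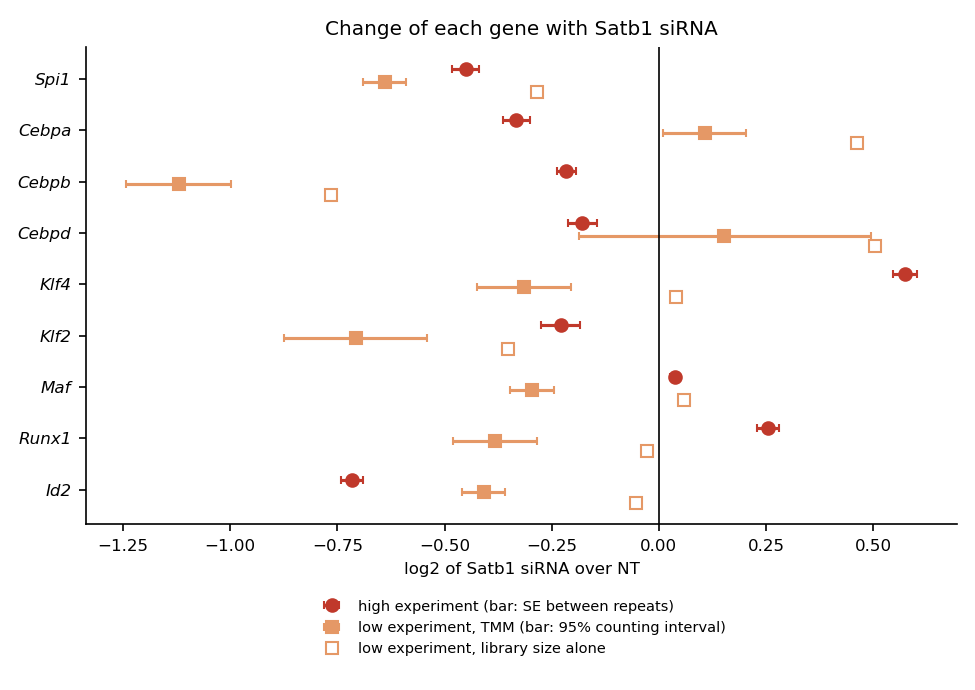
Log2 of Satb1 siRNA over NT for each gene: circles, high experiment with the SE between repeats; filled squares, low experiment after TMM scaling with the 95% counting interval; open squares, low experiment by library size alone. Cebpb lies at -1.12 in the low and -0.22 in the high experiment, and Klf4 is at 0.57 in the high experiment and at -0.31, or 0.040 by library size alone, in the low one.

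The log2 change of most factors with Satb1 siRNA differed in size between the libraries of the high and low experiments. With each group counted as 1 sample, it cannot be told whether the siRNA effect itself differed. In an edgeR interaction test over all 6 libraries, which takes the spread from the high repeats and assumes that the lone low libraries vary like them, 8 of the 9 factors were called, against 39.7% of all genes tested. By library size alone 7 were called, with 10078 genes called in all, against 8320 with TMM. Klf2 (0.18; edgeR adjusted p = 0.125) and Maf (0.032; edgeR adjusted p = 0.608) were then not called, and Spi1 turned to -0.11, while Cebpd was called at -0.63 (edgeR adjusted p = 6.49e-04). The change of Cebpb was less negative in the high than in the low experiment by 0.90 (SE 0.070; edgeR adjusted p = 5.26e-22), and that of Klf4 was higher by 0.88 (SE 0.063; edgeR adjusted p = 1.45e-24). Both differences kept their sign by library size alone, at 0.60 for Cebpb and 0.59 for Klf4. The Runx1 difference was 0.63 (SE 0.058; edgeR adjusted p = 1.06e-17). Cebpa went the other way, with -0.44 (SE 0.059; edgeR adjusted p = 1.75e-10), though DESeq2 called neither it (adjusted p = 0.0594) nor Klf2 (adjusted p = 0.0533). The Cebpd difference of -0.34 was not called (SE 0.165; edgeR adjusted p = 0.107).

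Over both experiments, with the repeats summed and the experiment as a term, none of the 9 factors was called. Here 0.0315% of 19068 genes tested were called by edgeR. The adjusted p of the factors ran from 0.440 to 0.997 in edgeR. At an unadjusted p under 0.05 there were 3 factors in edgeR and 3 in DESeq2, which also called 0 factors after adjustment. The share of all genes at that unadjusted p was 8.56% in edgeR and 5.61% in DESeq2. The 3 in edgeR were Cebpb (log2 fold change -0.66, SE 0.241), Id2 (-0.56, SE 0.172) and Spi1 (-0.54, SE 0.165), which were lower in both experiments. Klf2 was also lower in both, with -0.46 (SE 0.206). The other 5 factors had opposite signs in the 2 experiments under TMM scaling.

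The ratio of a pair of factors within a library needs no scaling, and the pairs described here were chosen after the values were seen. The FPKM ratio of Cebpa to Cebpb was 1.36 in the low Satb1 siRNA library and 0.580 in the low NT library. This was a log2 change of 1.23 (exact 95% counting interval 1.07 to 1.38, from the counts). In the high experiment the same ratio was 0.172 in both Satb1 siRNA libraries and 0.184 and 0.182 in the NT libraries, a log2 change of -0.12. Cebpa was thus more abundant than Cebpb only in the low Satb1 siRNA library among the 6. The ratio of Klf4 to Klf2 was higher with Satb1 siRNA in both experiments. It was 2.29 and 2.17 in the high Satb1 siRNA libraries, against 1.30 and 1.24 in the high NT libraries, and 1.56 in the low Satb1 siRNA library, against 1.19 in the low NT library. The log2 changes were 0.80 (SD 0.049 between repeats) and 0.39 (interval 0.19 to 0.59).

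Ratios to Spi1 also moved the same way in both experiments for Maf and Runx1. The ratio of Maf to Spi1 was 3.46 and 3.73 in the high Satb1 siRNA libraries, against 2.56 and 2.61 in the high NT libraries. It was 0.406 in the low Satb1 siRNA library, against 0.321 in the low NT library. The log2 changes were 0.49 and 0.34 (interval 0.27 to 0.42). For Runx1 over Spi1 they were 0.71 in the high and 0.26 (interval 0.15 to 0.37) in the low experiment. For Id2 over Spi1 they differed in sign, at -0.26 in the high and 0.23 (interval 0.16 to 0.30) in the low experiment.

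**Figure D4:**
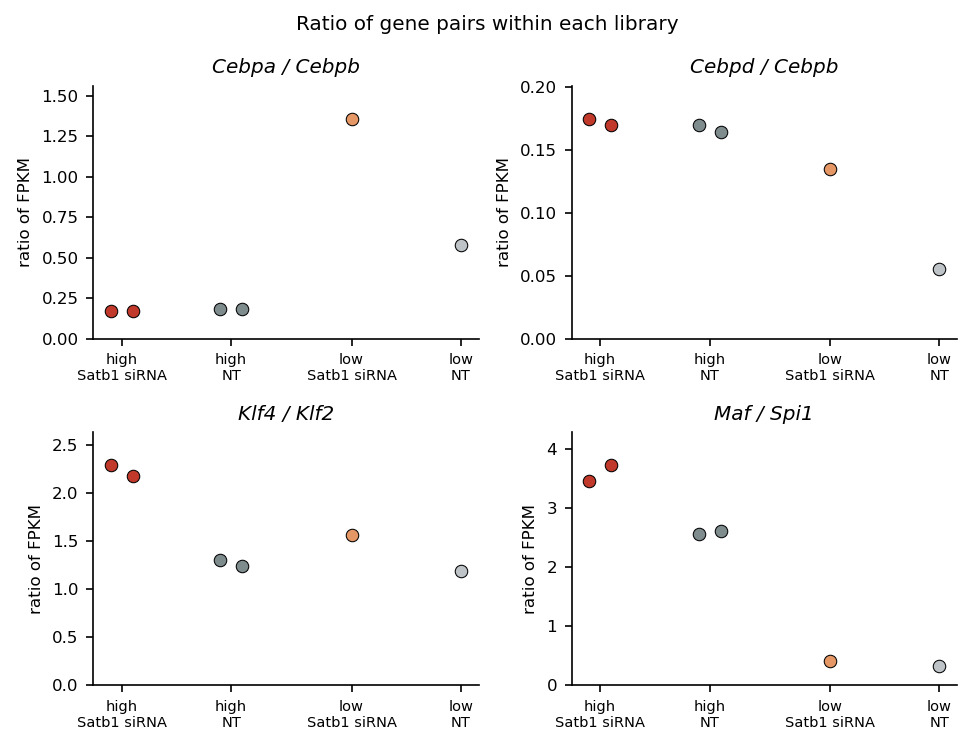
Ratio of the authors' FPKM for 4 pairs of genes within each library (1 point per library, axes from 0), by group. The Cebpa to Cebpb ratio is 1.36 in the low Satb1 siRNA library and at most 0.580 in the other 5 libraries.

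The starting levels of the factors also differed, between the NT library of the low experiment and those of the high experiment. These are different experiments, and the comparison has no test. Spi1 had 386.2 CPM in the low NT library and 45.9 and 45.6 CPM in the high NT libraries. Its log2 ratio of 3.08 was above that of 97.2% of all genes. Id2 had 372.1 CPM in the low NT library and 79.1 CPM in each high NT library, a log2 ratio of 2.23. Cebpd was lower in the low NT library, at 6.80 CPM, while the high NT libraries had 31.5 and 31.3 CPM, a log2 ratio of -2.20. Maf had 0.093, and Cebpb had -0.36, or -0.99 by library size alone.

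At 2-fold or more, 5 factors were higher in the low NT library and 1 was lower, against 25.7% and 22.7% of all genes. By library size alone 2 were higher, Spi1 (2.45) and Id2 (1.60), and Cebpd was the 1 lower (-2.83). That scaling put the median of all genes at -0.56, against 0.073 with TMM. Cebpa (1.11), Klf2 (1.09) and Klf4 (1.01) were 2-fold higher only with TMM, and Maf was at -0.54 by library size alone. Maf lay close to the median of all genes, a place that the scaling cannot change.

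Markers of dendritic cells and some nuclear transcripts differed with these levels, and their part in them was not tested. The 10 dendritic cell markers summed to 2361 CPM in the low Satb1 siRNA library and 2143 CPM in the low NT library, and to 159.8 to 163.5 CPM in the high Satb1 siRNA and 242.3 to 242.7 CPM in the high NT libraries. Most of each sum was the 1 gene H2-Ab1. It had 96.9 and 95.3 CPM in the high Satb1 siRNA libraries and 176.5 and 175.9 CPM in the high NT libraries. The low libraries had 1632 CPM of H2-Ab1 with Satb1 siRNA and 1705 CPM with NT. In the high experiment edgeR called 32.8% of all genes tested higher and 33.2% lower. The dendritic cell sum was lower there with Satb1 siRNA, although edgeR called 6 of the 10 markers higher and 4 lower, with a median log2 fold change of 0.29. Itgax (-1.95), Ccr7 (-1.14), H2-Ab1 (-0.87) and Xcr1 (-0.46) were the lower ones, and Cd209a (1.76), Flt3 (0.85) and Kit (0.59) were among the higher ones. Itgax, which encodes CD11c, had 5.47 and 4.93 CPM in the high Satb1 siRNA libraries and 20.3 and 20.2 CPM in the high NT libraries. It had 272.2 CPM in the low Satb1 siRNA library and 159.3 CPM in the low NT library. Flt3, a receptor that defines classical dendritic cells, was at most 1.88 CPM in the high libraries and had 41.5 CPM with Satb1 siRNA and 16.4 CPM with NT in the low experiment. The high libraries thus had low levels of these defining markers, though none of the 10 was at 0 in any library. The nuclear transcripts Malat1, Neat1, Kcnq1ot1, Xist and Miat summed to 31370 to 31520 CPM with Satb1 siRNA and 26680 to 26710 CPM with NT in the high experiment, and to 3394 CPM with Satb1 siRNA and 2968 CPM with NT in the low one. Most of the high sums was Malat1, with 23880 and 23890 CPM in the high NT libraries and 1171 CPM in the low NT library. The log2 ratio of the low NT over the high NT libraries was -4.35 for Malat1 and -2.97 for Kcnq1ot1. It was -0.18 for Neat1 and 0.31 for Xist, so these did not share the difference.

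Relatives and partners of the factors were called in both directions in the high Satb1 siRNA libraries. These lists, like the 9 factors, were chosen with earlier results of the data known, so they are described by counts. Of all genes tested, 33.2% were lower and 32.8% higher at the same threshold. Of 25 family relatives tested, 12 were lower and 4 higher in edgeR and 9 were not called; their median was -0.082. The PU.1 relative Spic had -0.78, Klf16 -0.76, Runx3, a Runx factor of lymphocytes and dendritic cells, -0.58, and Ddit3, a C/EBP relative of the stress response, -0.56. Of 9 partners tested, 6 were lower and 2 higher in edgeR, and the median was -0.27. The AP-1 subunits Junb (-0.997) and Jun (-0.65) and the Runx1 partner Ets1 (-0.33) were lower, and the E protein gene Tcf4, whose product is bound by Id2, was higher (0.41). Of 34 other myeloid regulators tested, 21 were lower and 9 higher in edgeR, and the median was -0.24. Nr4a1 (-1.34) and Egr2 (-1.09), both immediate early genes, and Pparg (-0.84) were lower, and Bcl11a, a factor of B cells and plasmacytoid dendritic cells, was higher (1.01). Spib, a close relative of Spi1, was among the 4 relatives called higher (0.44, named after its value was seen).

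Genes known as targets of the factors, from textbook knowledge, had lower medians in the low than in the high experiment after TMM scaling, where the medians of all genes were -0.059 and 0.011; this difference was not tested. The counts stand against 33.2% of all genes lower and 32.8% higher in the high experiment, and 12.2% lower by 1.5-fold or more in the low experiment. The low counts and their share hold for TMM scaling only. Library size alone shifts every low ratio upward alike, with the median of all genes at 0.29, and the lists were not recounted there. Of 18 Spi1 targets, 16 were lower and 2 higher in the high experiment (edgeR), with a median of -0.28, and 6 were 1.5-fold lower in the low experiment, with a median of -0.48. Cd14, the coreceptor for lipopolysaccharide, had -0.74 in the high and -1.49 in the low experiment, and the receptor subunit gene Csf2rb had -0.62 and -0.51. Of 15 C/EBP targets tested, 8 were lower and 5 higher in the high experiment (edgeR; median -0.16), while all 15 were 1.5-fold lower in the low experiment (median -1.74). This list shares S100a8, S100a9, Camp, Ltf and Csf3r with the neutrophil markers, whose sum is given above. Ptgs2, which encodes a prostaglandin synthase, had -1.20 in the high and -2.25 in the low experiment, and S100a8 0.70 and -1.85.

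For the targets of Maf, Klf2, Klf4 and Runx1 the same shares of all genes apply. These were 33.2% lower and 32.8% higher in the high experiment, and 12.2% lower by 1.5-fold or more in the low one. The low counts again hold for TMM scaling only and were not repeated by library size alone, which shifts every low ratio upward. Of 10 Maf targets, 6 were lower and 4 higher in the high experiment (edgeR, median -0.25), while Maf itself was nearly level. The complement gene C1qb had -0.56 and the scavenger receptor gene Cd163 0.98. In the low experiment 6 of 9 were 1.5-fold lower, C1qb with -0.74 and Cd163 with -0.89. Of 9 Klf2 or Klf4 targets, 5 were lower and 4 were not called in edgeR, and the median was -0.067. Of 8 in the low experiment, 4 were 1.5-fold lower, with a median of -0.27. The cell cycle inhibitor gene Cdkn1a had -1.15 in the high and -0.94 in the low experiment. The thrombomodulin gene Thbd had -0.66 in the high and 0.23 in the low experiment. Of 6 Runx1 targets tested, Spi1 among them, 3 were higher and 2 lower in edgeR, and the median was 0.18. Of 5 in the low experiment, 3 were 1.5-fold lower, with a median of -0.64.

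Of 19 tissue dissociation and immediate early genes, 18 were called lower and 1 higher in the high experiment (median -0.72). The shares of all genes tested were 33.2% lower and 32.8% higher. In the low experiment 12 of the 19 were 1.5-fold lower with TMM scaling (median -0.79), against 12.2% of all genes. This count was not repeated by library size alone, which shifts every low ratio upward. Zfp36, which encodes a protein that destabilises cytokine mRNA, had -1.05 and -0.80, and Socs3, a feedback inhibitor of cytokine signalling, -0.88 and -0.96. In the same high Satb1 siRNA libraries Cebpb (-0.22), Cebpd (-0.18) and Klf2 (-0.23) were lower and Klf4 (0.57) was higher. The part of these stress genes in the values of the factors was not tested.

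**Figure D5:**
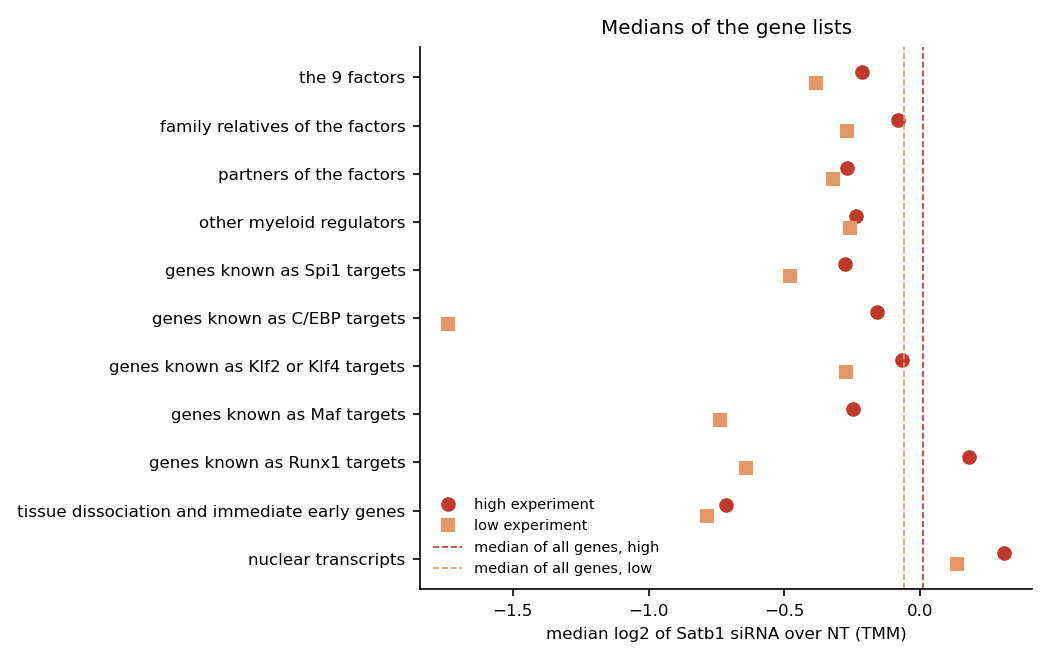
Median log2 of Satb1 siRNA over NT (TMM) for the 9 factors and each list, in the high (circles) and low (squares) experiment, with dashed lines at the medians of all genes. The immediate early list is low in both, at -0.72 and -0.79, and the C/EBP targets lie far apart, at -0.16 and -1.74.

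The regulators whose pattern lay nearest to each factor were found among 69 genes of these lists and the other factors. Likeness was the Euclidean distance of centred log2 CPM over the 4 group means, for which the median distance ran from 1.04 to 3.27 between factors. Nearest to Spi1 were Relb (0.174) and Irf1 (0.233), and to Cebpa Myc (0.161) and Irf8 (0.216). Klf4 and Runx1 were each nearest to Hhex (0.286 and 0.128), and each came second for the other (0.334). Maf had the closest neighbour, Klf11 (0.0664), followed by Elf1 (0.174). Id2 lay nearest to Irf5 (0.215) and Klf2 to the small Maf genes Mafk (0.270) and Mafg (0.308). Cebpb (Maff, 0.528) and Cebpd (Klf9, 0.363) had no neighbour closer than these. The points share libraries, so these distances are a description over 4 groups. They take in level differences between the experiments as well as the siRNA changes, so near genes need not change alike with the siRNA. Elf1, for example, had a log2 fold change of -0.044 in the high experiment, and Maf 0.037.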

How the data were processed

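Total RNA was measured in 6 libraries (TruSeq Stranded kit, per the labels' protocols). The authors deposited estimated counts and FPKM values (per the file headers). The submitters' processing notes name RSEM 1.2.12, DESeq2 and build mm9. Neither the aligner nor the strand setting is stated in the labels. The deposited counts were already whole. FPKM served only to compare levels between genes and for ratios within a library. FPKM follows library size with no TMM.

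Groups came from the titles. The high experiment was tested with edgeR 4.0.16 in R 4.3.3 (quasi-likelihood, robust, TMM, filterByExpr, Benjamini-Hochberg, threshold 0.05); the interaction and the fit over both experiments used the same tool. SEs are the log2 fold change divided by the root of F. Low ratios used a prior count of 2. DESeq2 1.42.0 was an alternative, with other scalings, filters, a replicate block and libraries left out. Nothing shows that repeats came from separate animals, so p-values measure the spread between libraries, which may be technical. Intervals cover counting error only.

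The 9 genes and all lists were chosen with earlier results of these data known. Beyond the 9, the text names up to 4 genes a list with the largest change in the high experiment and a mean log2 CPM of at least 1, the 2 nearest regulators of each factor, and dendritic cell markers chosen after their values were seen. Older symbols were matched through RefSeq's synonyms.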

Additional observations from a re-analysis of the deposited data

Results flagged for a closer look

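The log2 change of 8 factors with Satb1 siRNA was called different between the experiments in the edgeR interaction test over all 6 libraries. Of all genes tested, 39.7% were called. That test rests on near-identical repeats and 1 low library per siRNA, so it cannot show that the siRNA effect itself differed. The differences, high minus low on the log2 scale, were 0.90 for Cebpb, 0.88 for Klf4, 0.63 for Runx1, 0.47 for Klf2, 0.33 for Maf, 0.18 for Spi1, -0.31 for Id2 and -0.44 for Cebpa. By library size alone Spi1 turned to -0.11, and Maf (0.032) and Klf2 (0.18) were no longer called in edgeR (adjusted p = 0.608 and 0.125). DESeq2 did not call Klf2 (adjusted p = 0.0533) or Cebpa (adjusted p = 0.0594). The change of Klf4 was a rise in both high Satb1 siRNA libraries and a ratio below 1 in the low one, which was above 1 by library size alone. For Cebpb both experiments had a lower level, and the ratio was lower in the low one. In the low experiment the neutrophil sum was 296.2 CPM with Satb1 siRNA and 700.8 CPM with NT. Its part in these differences was not tested.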

How the results depend on the processing

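In the high experiment every factor kept its direction under all alternatives, and only the call of Maf ended in some (see its values above). All genes called came to 13367, to 13248 with the replicate block, which called the same numbers of factors (3 higher, 6 lower), and to 11942 to 12092 without 1 library. Same-numbered repeats did not deviate together (r = 0.0018 over 12737 genes). The repeats differ by little more than counting noise, so this check could not show whether same-numbered libraries were paired. By library size alone, the factors called for a difference between the experiments became 3 higher and 4 lower, in place of 6 and 2. All genes called then came to 10078, against 8320. The Spi1 difference turned to -0.11, the calls of Klf2 and Maf ended and Cebpd was called. DESeq2 called 5 higher and 1 lower, without Klf2 and Cebpa, and 3626 genes in all against 8320. In the fit over both experiments, library size alone turned Cebpa to 0.090, Cebpd to 0.18, Maf to 0.075 and Runx1 to 0.14, none of them called. All genes called there were 6 in edgeR, 347 by library size alone, 220 in DESeq2, and 0 without replicate 1 or 2 in edgeR, where 1583 and 1532 genes had an unadjusted p under 0.05. In the low experiment, library size alone left 1 factor 1.5-fold lower and turned Klf4 to 0.040 and Maf to 0.059. For the NT levels it left 2 factors 2-fold higher and turned Maf to -0.54. Scaling by library size alone shifts the log2 values of all genes alike, which by construction accounts for these turns. No other count of factors moved past 1.5 times. Cebpd in the low experiment rests on the fewest counts, 168 with Satb1 siRNA and 130 with NT.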
